A study of Mus musculus with 2 samples.

Results

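The genes described here mark tissue macrophages of the fetus, measured in cells sorted as endothelium from the embryonic mouse kidney. The 10 genes are Csf1r, Mrc1, F13a1, Lyz2, Cd68, Cd163, Mertk, Timd4, Maf and Spi1. Their members on the array are all probe sets that the platform annotation gives to exactly 1 of these 10 genes, which came to 17 of 34945 probe sets with 1 gene, or 10 of 18193 genes. No probe set annotated with several genes held a member (0). Of the 10 genes, Csf1r had 3 probe sets, Maf had 6 and the other 8 had 1 each. Those were 1450430_at (Mrc1), 1448929_at (F13a1), 1423547_at (Lyz2), 1449164_at (Cd68), 1419144_at (Cd163), 1422869_at (Mertk), 1455318_at (Timd4) and 1418747_at (Spi1). The genes were chosen with earlier results of these data known, so their detection is described and not tested.

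There was 1 group, of 2 samples. Each was a pool of about 5 to 10 kidneys taken at E15.5, which is Theiler stage 23. The CD-1 animals carried the transgene Tg(TIE2GFP)287Sato, and the kidneys were dissociated with trypsin and sorted for GFP, with no other allele or agent named. The label of the source is renal artery and vein, but the protocol took whole kidneys. The RNA went through 2 rounds of amplification and was hybridised to 1 Affymetrix mouse array per pool. GFP is driven by the promoter of Tek (Tie2), a receptor tyrosine kinase of endothelium that is also known from some macrophages and from blood progenitors. The sample titles name Flk1, not Tie2, and nothing in the labels says that the litters of the pools were separate, so differences between arrays may be technical in part. With 1 group of 2 arrays nothing could be tested.

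Macrophages of fetal tissues arise from progenitors of the yolk sac and fetal liver. They depend on the receptor for colony stimulating factor 1 and on the transcription factor PU.1, and they clear dying cells and debris while organs take shape. The members fall into 5 roles. Csf1r is the growth factor receptor, Spi1 (PU.1) and Maf (c-Maf) are transcription factors, Mrc1 (the mannose receptor CD206) and Cd163 (the receptor for haptoglobin and haemoglobin) are scavenger receptors, Mertk and Timd4 take up apoptotic cells, and Cd68, Lyz2 and F13a1 encode a lysosomal membrane protein, lysozyme and a subunit of coagulation factor XIII.

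Values are intensities in arbitrary units on a linear scale, given for replicate 1 and then replicate 2. As background served 83 probe sets of 75 receptor genes of smell, pheromone sensing and taste, and the limit, the 95th percentile of their intensities, was 202.5 and 204.1. A probe set was called above background only when it passed the limit on both arrays, and 55.0% of all probe sets with 1 gene did so. Brightness varies with the probes' sequence as well as with transcript level, so no gene was ranked against another. Of 8 pan-endothelial genes all were above background (8 of 8), beside 61.0% of all genes. This does not measure the purity of the sort, since renal stroma genes also reached 8 of 8 and no unsorted cells were measured. Tek gave 15908 and 21499, and the cadherin of endothelial junctions, Cdh5, gave 22435 and 20733.

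Of the 17 member probe sets, 14 (82.4%) were above background on both arrays, beside the 55.0% of all probe sets. Taking the brightest probe set of each gene, 9 of 10 members were above background, beside 61.0% of all genes. Cd163 was the exception, and it passed the limit in replicate 2 alone. In these bulk samples fewer cells of a type and less RNA per cell cannot be told apart, and the arrays cannot tell which cells of the pool carried a transcript.

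**Figure D1:**
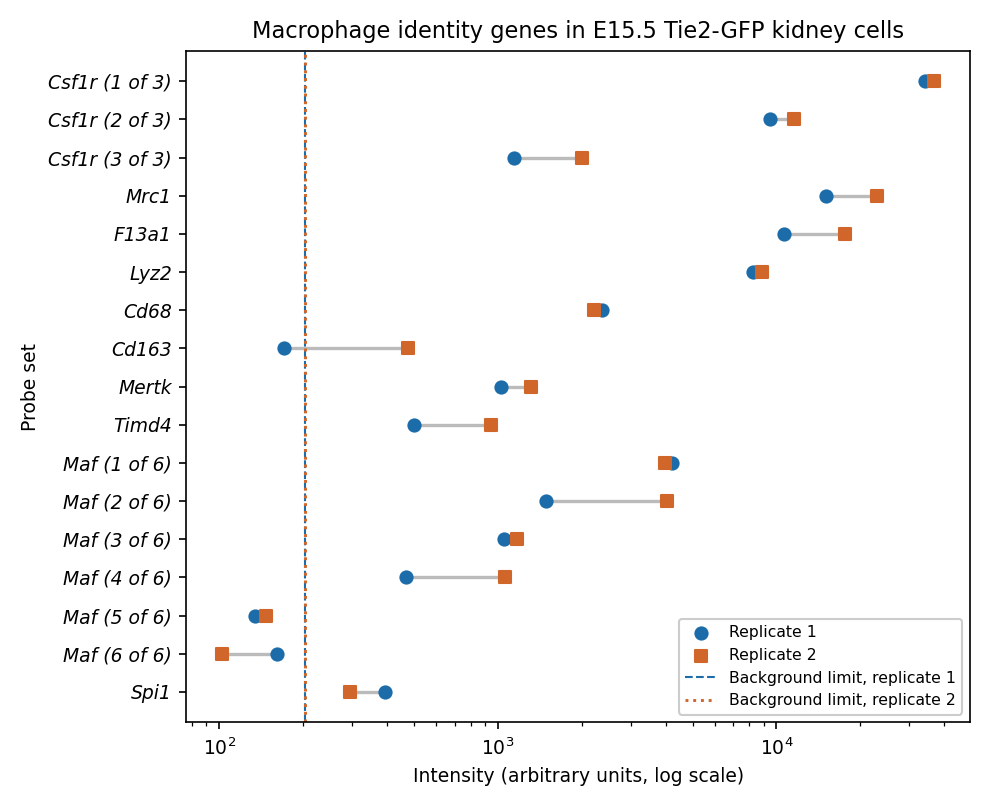
Intensity of each of the 17 probe sets of the 10 genes (x axis, arbitrary units, log scale) in replicate 1 (circles) and replicate 2 (squares), with the background limits of 202.5 and 204.1 as dashed and dotted lines. The 3 probe sets not above both limits are Cd163 and 2 of the 6 for Maf, and the numbers in brackets order the probe sets of a gene by intensity.

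The receptor and both transcription factors were present on both arrays. Csf1r, through which macrophages receive their survival signal, gave 34030 and 36806 with the probe set 1419872_at. Its other probe sets gave 9442 and 11564 (1419873_s_at) and 1142 and 2000 (1423593_a_at). All 3 were above background, and all 3 were higher in replicate 2, by 1.07-fold, 1.21-fold and 1.73-fold. Spi1, the factor that sets up the myeloid program, gave 394.7 and 294.0, above the limit by less than 2-fold on either array. It was 1.36-fold higher in replicate 1.

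Maf, a factor of resident macrophages that lymphatic endothelium and other cells also use, had probe sets that disagreed. Of its 6 probe sets, 4 were above background and 2 were not. The brightest, 1447849_s_at, gave 4206 and 3994 and was nearly level between the arrays, at 1.07-fold higher in replicate 1. By contrast, 1456060_at gave 1485 and 4051, which was 2.69-fold higher in replicate 2, and 1444073_at gave 467.8 and 1063, which was 2.24-fold higher in replicate 2. Of the member probe sets above background on both arrays, only these 2 differed by over 2-fold. The fourth, 1435828_at, gave 1053 and 1171, and the 2 below the limit gave 134.9 and 147.7 (1437473_at) and 161.3 and 102.4 (1447945_at). A direction for Maf between the pools therefore depends on the probe set chosen.

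The scavenger receptors differed from each other. Mrc1, which binds mannose-bearing glycoproteins and is also known from lymphatic and sinusoidal endothelium, gave 15057 and 22983. It was 1.50-fold higher in replicate 2. Cd163 gave 170.4 and 475.8, so it lay below the limit on replicate 1 and above it on replicate 2, and no fold change is given for it.

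The receptors for apoptotic cells were both above background. Mertk, a receptor tyrosine kinase that recognises phosphatidylserine through bridging proteins, gave 1024 and 1312 and was 1.26-fold higher in replicate 2. Timd4 (TIM-4), which binds phosphatidylserine directly and marks long-lived resident macrophages, gave 499.6 and 949.1 and was 1.87-fold higher in replicate 2.

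Of the remaining members, the coagulation subunit F13a1, which is used by macrophages and by megakaryocytes, gave 10665 and 17590 and was 1.63-fold higher in replicate 2. Cd68, a protein of macrophage lysosomes, gave 2358 and 2218, and Lyz2, the lysozyme of macrophages and granulocytes, gave 8262 and 8857. For both the arrays were close, with Cd68 1.08-fold higher in replicate 1 and Lyz2 1.06-fold higher in replicate 2.

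Lyz2 has a close copy, Lyz1, which is best known from Paneth cells. Of the 3 probe sets annotated to Lyz1, both whose names end in _x_at, a suffix for probes that can match other transcripts, were above background, at 32494 and 31814 (1436996_x_at) and 30547 and 30378 (1439426_x_at). The third, 1450822_at, was below it at 133.7 and 69.44. The sequence was compared around the start sites only, which does not show how alike the copies are where the probes lie. Over the last 100 bases of their promoter windows (RefSeq, GRCm38.p6), 99 positions were identical, against 201 of 300 over the whole windows compared without gaps. A comparison without gaps can miss likeness further upstream. Those 100 bases are shown 5′ to 3′ because they hold the 99 identical positions, with the position that differs in a capital. The sequences are of the reference strain C57BL/6J and not of CD-1.
Lyz2 (chr10:117282223-117282322, - strand): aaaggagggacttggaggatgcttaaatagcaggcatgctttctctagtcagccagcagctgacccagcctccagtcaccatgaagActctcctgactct
Lyz1 (chr10:117292819-117292918, - strand): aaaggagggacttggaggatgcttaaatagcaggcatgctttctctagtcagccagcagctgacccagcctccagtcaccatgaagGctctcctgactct

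How far these probe sets share transcripts was not tested, since probe sequences were not used here. Signal given to Lyz1 and to Lyz2 is uncertain for that reason.

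The members' own upstream sequence was searched for 2 short motifs. Promoter windows of 250 bases before to 50 bases after the start site were searched for 7 of the 10 genes, all but Csf1r, Maf and Spi1, in 8 windows, F13a1 having 2. One form of the PU.1 site, GAGGAA on either strand, was present in windows of 3 of the 7 genes, Mrc1, F13a1 and Cd68, and in 4 of the 8 windows. Of 32851 promoter windows in the mouse reference 28.3% held it. Mrc1 held it 3 times, and Cd68 and the first window of F13a1 2 times each. A motif of Maf factors, TGCTGA, on either strand, was present in windows of 2 of the 7 genes, Lyz2 and Timd4, or 2 of the 8 windows, and in 19.5% of all windows. No window of a member held both motifs. A match describes the letters only, and its absence says only that these letters are not in the window. The windows of Mrc1 and Cd68 and the first of F13a1 are shown because they hold GAGGAA more than once, 5′ to 3′, with it or its reverse complement TTCCTC in capitals (RefSeq, GRCm38.p6).
Mrc1 (chr2:14229164-14229463, + strand): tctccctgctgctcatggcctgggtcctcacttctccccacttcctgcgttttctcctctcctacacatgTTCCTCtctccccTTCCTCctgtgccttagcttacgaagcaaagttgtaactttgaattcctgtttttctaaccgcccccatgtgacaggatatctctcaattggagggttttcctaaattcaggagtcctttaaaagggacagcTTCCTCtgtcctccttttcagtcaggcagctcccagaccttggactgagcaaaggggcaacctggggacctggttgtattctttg
F13a1 (chr13:37050195-37050494, - strand): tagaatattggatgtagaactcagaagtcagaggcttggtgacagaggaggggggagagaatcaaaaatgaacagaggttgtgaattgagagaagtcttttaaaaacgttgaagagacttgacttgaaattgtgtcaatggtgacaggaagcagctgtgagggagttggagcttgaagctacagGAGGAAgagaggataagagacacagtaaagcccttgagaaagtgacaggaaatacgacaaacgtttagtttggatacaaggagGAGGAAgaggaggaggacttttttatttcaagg
Cd68 (chr11:69666121-69666420, - strand): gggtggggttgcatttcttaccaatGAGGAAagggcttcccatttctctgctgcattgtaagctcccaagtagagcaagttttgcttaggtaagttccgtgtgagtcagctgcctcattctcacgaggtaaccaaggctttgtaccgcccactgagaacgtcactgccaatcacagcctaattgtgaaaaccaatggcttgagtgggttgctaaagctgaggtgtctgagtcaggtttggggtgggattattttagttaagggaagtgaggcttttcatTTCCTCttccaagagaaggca

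The second question was how far the pools differed in these genes. The difference was taken as log2 intensity of replicate 1 minus replicate 2, after the arrays had been centred on the median of all probe sets above background, an offset of -0.02. Among the 14 member probe sets above background, 11 (78.6%) were higher in replicate 2, beside 48.7% of all probe sets above background. Their differences ran from -1.43 to 0.45, with a median of -0.30, and the median over all probe sets above background was 0.01. Member probe sets of a gene share its transcripts. With 1 probe set for each gene, the brightest, the median was -0.09, with 6 of the 9 genes above background higher in replicate 2, beside 47.3% of all genes.

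For scale, the spread between the arrays at a given intensity was taken as the SD of the difference over the 1000 probe sets nearest in mean intensity, which ran from 0.31 for the brightest Csf1r probe set to 0.59 for Timd4. Of the 14 member probe sets, 6 were higher in replicate 2 by more than that SD, beside 14.1% of all probe sets above background. They were F13a1 (-0.70 against an SD of 0.39), Mrc1 (-0.59 against 0.35), Timd4 (-0.91 against 0.59), 2 for Maf (-1.43 against 0.51, and -1.16 against 0.59) and the dimmest of Csf1r (-0.79 against 0.56). The other 8 were within it, among them both brighter probe sets of Csf1r, the brightest of Maf, and Lyz2, Cd68, Mertk and Spi1. With the brightest probe set for each gene, only F13a1, Mrc1 and Timd4 were higher in replicate 2 by more than the SD. Those of Csf1r (-0.09 against 0.31) and Maf (0.10 against 0.47) were not. The 14.1% counts probe sets, and no such share was taken over genes. No member was higher in replicate 1 by more than the SD (0). Of the 14, 2 differed by over 2-fold, both of Maf, beside 4.92% of all. None of the 9 genes did when represented by the brightest probe set (0 of 9), beside 4.76% of all genes. With 1 array for each pool, none of these differences has a replicate check.

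**Figure D2:**
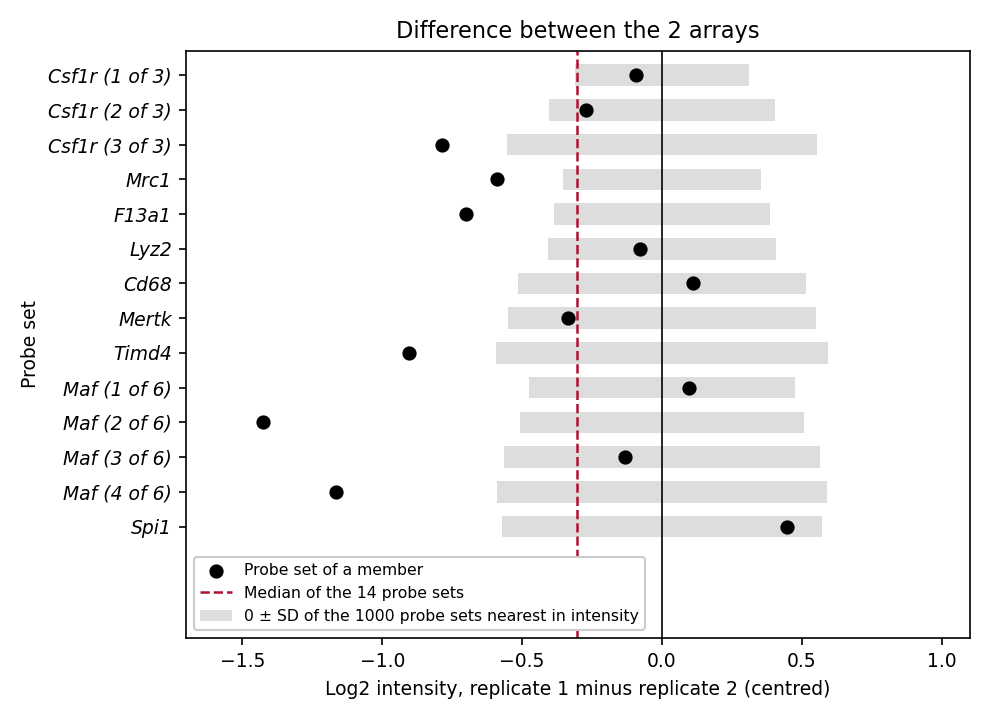
Log2 difference, replicate 1 minus replicate 2, of the 14 member probe sets above background (dots), with the SD of the 1000 probe sets nearest in intensity drawn to either side of 0 (grey bars) and the median of -0.30 (dashed line). Of the 14 dots, 11 lie on the replicate 2 side, and 6 lie outside their grey bar, all of them to the left.

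Other genes of macrophages were read in the same way. The share of all genes above background, 61.0%, stands beside the count of each list below. Of 16 further macrophage genes, 14 were above background, with Adgre1 (a surface marker of mouse macrophages) at 4305 and 7632, Aif1 (the actin-binding protein IBA1) at 759.4 and 835.1, the Fc receptor Fcgr1 at 1720 and 2736 and the fractalkine receptor Cx3cr1 at 12473 and 14890. The sialic acid receptor Siglec1 (136.8 and 137.6) and the integrin Itgam (130.9 and 94.39) were below the limit on both arrays. Of these 14, 12 were higher in replicate 2, beside 47.3% of all genes above background, with a median difference of -0.40. Ptprc (CD45, the phosphatase of blood cells, at 2846 and 6381) and the endotoxin receptor Tlr4 (626.4 and 1493) were over 2-fold higher there. These values are of the brightest probe sets, and 1 of 2 for Cx3cr1, 1 of 2 for Ptprc and 2 of 4 for Tlr4 were above background. The summed intensity of this list was 55522 and 74826, and that of the brightest probe sets of the 10 members was 76668 and 95479.

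The growth factor axis around Csf1r was measured on both sides of the receptor. Of 9 genes 8 were above background. Csf1, a ligand of the receptor, gave 1472 and 826.4 with the only 1 of its 4 probe sets above background. Il34, the other ligand, had 1 probe set, which gave 66.25 and 13.15 and was below the limit. Csf2ra gave 677.0 and 708.2 and Csf2rb, the shared beta chain of related receptors, gave 5255 and 7223. Of 12 measured transcription factors of the lineage 10 were above background, among them Cebpa at 419.4 and 243.6, Cebpb at 3203 and 3246, Irf8 at 3353 and 2836 and Irf5 at 765.5 and 795.4. The liver X receptor Nr1h3 (190.5 and 114.7) was below the limit, and Spic, a factor of iron-recycling macrophages, passed it in replicate 1 alone (338.5 and 132.4).

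Mertk and Timd4 act within a larger set of genes for the uptake of dying cells, of which 12 of 16 were above background. Axl, a receptor of the Mertk family, gave 1490 and 2337 with the brighter of its 2 probe sets, the other being below the limit (41.26 and 26.27). The third of that family, Tyro3, passed the limit in replicate 2 alone (167.1 and 253.5). The bridging proteins Gas6 and Pros1 gave 3541 and 4453, and 2618 and 3678. The TIM family members Havcr1 (114.5 and 126.7) and Timd2 (23.64 and 96.05) were below the limit on both arrays, as Timd4 was not. The integrin Itgb3 passed it in replicate 2 alone (164.1 and 642.3).

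Lysosomal genes that, like Cd68, are plentiful in phagocytes were above background for 12 of 13 measured members. Lamp1 gave 31261 and 38574, Lamp2 gave 8512 and 12190, and the cathepsins Ctsb and Ctsd gave 40736 and 34340, and 9356 and 9133. Gpnmb passed the limit in replicate 2 alone (135.0 and 301.4). Of the genes of haemoglobin and iron handling, the pathway Cd163 serves, 7 of 9 were above background, with the iron exporter Slc40a1 at 17811 and 19374. The haem oxygenase Hmox1, which degrades haem after uptake, passed the limit in replicate 1 alone (220.4 and 75.12). Cd163 was below the limit on that array (170.4), but both genes lay close to the limit of 202.5 there.

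**Figure D3:**
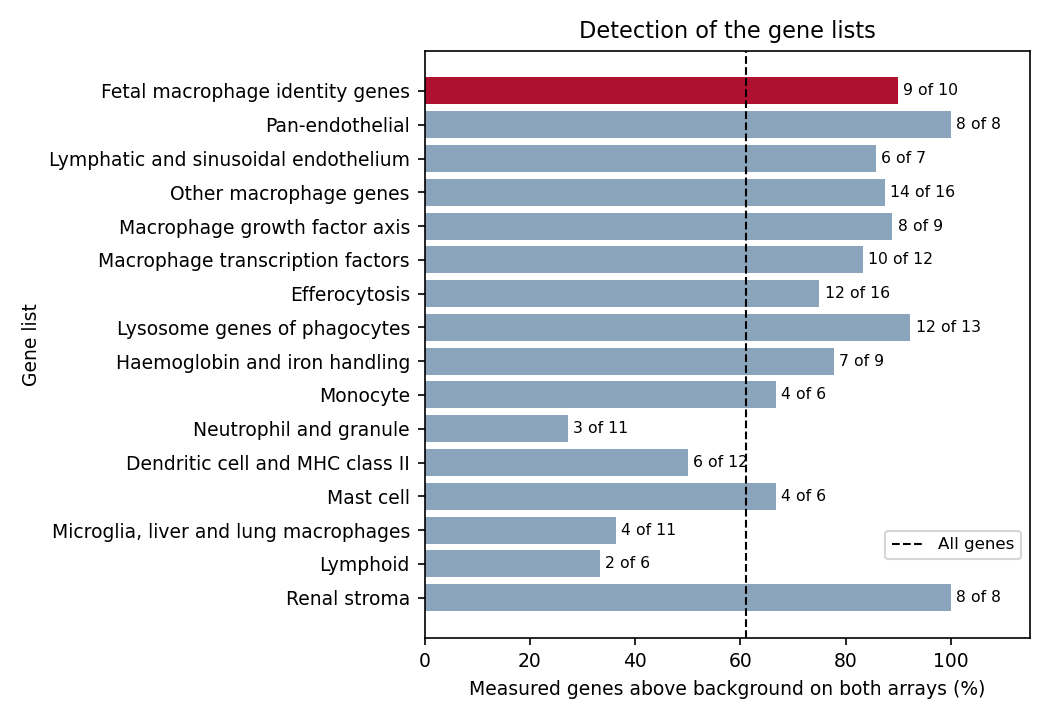
Share of measured genes that passed both background limits (x axis, percent) in the 10 fetal macrophage identity genes (red bar) and in each of 15 other lists (blue bars), with the counts at the right and the 61.0% of all genes as a dashed line. The members reached 9 of 10, neutrophil and granule genes 3 of 11 and lymphoid genes 2 of 6.

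Markers of other blood cells were counted in the same way, beside the 61.0% of all genes, and the lists were not tested against each other. Neutrophil and granule genes reached 3 of 11. Elane was below the limit (141.1 and 28.88), whereas Mpo gave 993.8 and 918.3, S100a8 gave 1079 and 817.2, and Ctsg gave 208.2 and 377.6. Ctsg was close to the limit of 202.5 on replicate 1. Prtn3 passed the limit in replicate 1 alone (205.7 and 172.8), and S100a9 was below it on both arrays (30.7 and 13.91). Lymphoid genes reached 2 of 6 and monocyte genes 4 of 6, with the chemokine receptor Ccr2 at 840.7 and 1851. Genes of dendritic cells and MHC class II reached 6 of 12. Genes known from the macrophages of brain, liver and lung reached 4 of 11. Tmem119 gave 1118 and 1420, the platelet and microglial receptor P2ry12 passed the limit in replicate 2 alone (139.1 and 466.1), and Clec4f of liver macrophages was below it (199.8 and 99.91).

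The values of other cell types in the pools are given beside those of the members. Lymphatic and sinusoidal endothelium, which also uses Mrc1 and Maf, had 6 of 7 measured genes above background. The list had a summed intensity of 45991 and 54957 and a median difference of -0.26. Of the 6, 4 were higher in replicate 2, beside 47.3% of all genes above background. The hyaluronan receptor Lyve1, which fetal macrophages use too, gave 5782 and 16595 and was 2.83-fold higher in replicate 2. Its rise was larger than that of the list's sum, so the summed intensity of the other genes was not higher in replicate 2. Pdpn (562.0 and 974.7) and Reln (6730 and 9748) were also higher there, by 1.71-fold and 1.43-fold. Prox1, the defining factor of lymphatic identity, passed the limit in replicate 2 alone (92.98 and 547.6). The scavenger receptor Stab1 was nearly level (11847 and 12151), and the VEGF receptor Flt4 was 1.32-fold higher in replicate 1 (14611 and 11269). Stab2, a related scavenger receptor of sinusoids, was 1.76-fold higher in replicate 1 (6367 and 3672). Renal stroma genes, a list chosen with their difference between these arrays known, had 8 of 8 above background, a summed intensity of 7270 and 36997 and a median difference of -2.12. Pan-endothelial genes summed to 82626 and 83103, with a median difference of 0.07. Their differences ran both ways, from -0.82 to 0.68, with 3 of the 8 higher in replicate 2. No gene of these 3 lists had an intensity of 0. The part of lymphatic, stromal and other blood cells in the members' differences was not tested.

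**Figure D4:**
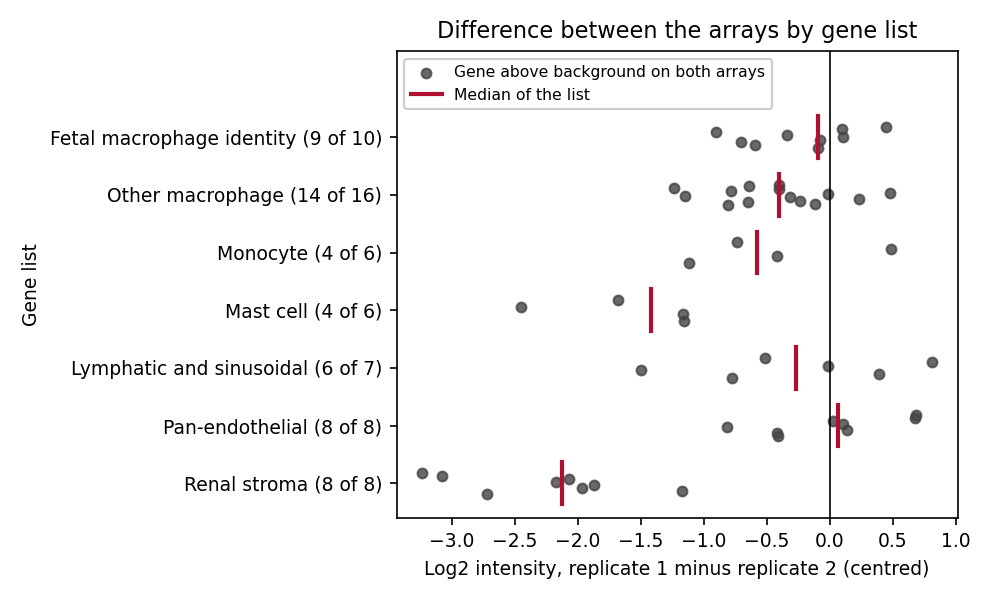
Log2 difference, replicate 1 minus replicate 2, of genes above background on both arrays (dots) in 7 gene lists, with a red mark at each median and the number above background of the number measured. The median of the fetal macrophage identity genes was -0.09, that of the other macrophage genes -0.40 and that of the renal stroma genes -2.12.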

How the data were processed

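The values used were the deposited intensities, 1 per probe set on a linear scale, of 2 arrays with 45101 probe sets. The submitters' processing notes give the scanner software GCOS without a version. With the lowest and the highest 2% removed, each array averaged 1500.01, so they had been scaled before deposit. The authors' table holds no detection calls that were used here, columns of other samples numbered 0, and no genome build was stated in the sources that were read. The study's methods concern a different array and labelling, so they were not applied.

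Genes were named from the platform annotation, and only from probe sets with 1 gene (34945, with 932 having several genes, 9160 none and 64 being array controls). For each gene the brightest probe set, by mean log2 intensity over the arrays, was used. Other probe sets of a gene could be below the limit. Cdh5, Cebpb, Irf5, Gas6, Reln, Ms4a2 and Il7r each had 1 of 2 above background, H2-Aa had 2 of 4 and Ccr2 had 3 of 4. Background limits, centring and the SD of the 1000 nearest probe sets are as given with the results. The calculation was tested on simulated data and run in Python 3.11.15 with pandas 2.3.3, numpy 2.4.6 and matplotlib 3.10.9. Alternatives changed the limit, the centring and scaling, the filter, and the probe sets or arrays used.

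The members and the lists were chosen with earlier results of these data known. Members are named with every probe set. From the other lists names were taken from the first 4 measured genes, from up to 3 genes that did not share the side of the limit of the majority, and from genes that differed by over 2-fold, with counts alone for some lists. Stab1, Stab2 and Reln in the lymphatic list and Cd74 and Batf3 in the dendritic cell list were chosen after their values were seen. So were S100a9 in the neutrophil list and H2-Ab1 and Ciita in the dendritic cell list.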

Additional observations from a re-analysis of the deposited data

How the results depend on the processing

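Alternatives to the background limit were the 99th percentile of the receptor probe sets, 2 times the limit and a fixed 100. With these, with probe sets without a suffix for shared sequence and with either array alone, 11 to 17 member probe sets were above background. So were 8 to 10 member genes, and all counts were within 1.5 times the values given. The share of all genes ran from 52.4% at 2 times the limit, where 8 member genes passed, to 72.7% at the fixed 100, where 10 did. The 11 came without suffixed probe sets, a setting that takes suffixed probe sets of Csf1r and Maf out of the 17. Cd163 was above background at the fixed limit of 100 and on replicate 2 alone, and Spi1 was lost at 2 times the limit. Further list genes above background numbered 104, and 78 to 122 under these alternatives. The median difference of the members stayed between -0.37 and -0.27 under alternatives to the centring, scaling, filter and probe sets. They were no centring, quantile normalization, 50 added before the logarithm, no filter on low values, no suffixed probe sets and 2 times the limit. With no filter, 3 of 17 member probe sets differed by over 2-fold, beside 20.1% of all probe sets. Under the rest of them 2 did, beside 3.76% to 5.22% of all. With 1 value per gene, alternatives chosen after seeing the data, the median was -0.09 for the brightest probe set. It was -0.34 when each gene took the middle of its probe sets. Under either of them 0 member genes differed by over 2-fold, against 2 probe sets, beside 4.76% and 4.05% of all genes. Of the counts of single lists under these alternatives, 8 moved by over 1.5 times and 97 did not. At the fixed limit of 100 neutrophil genes numbered 6, microglia, liver and lung genes 7 and lymphoid genes 4, lymphoid genes numbered 1 at 2 times the limit, neutrophil genes 6 on replicate 2 alone, and without suffixed probe sets pan-endothelial genes numbered 5, growth factor genes 5 and mast cell genes 2. No paired analysis was possible because there was 1 group. With 2 arrays, the error of a single difference cannot be estimated from replicates.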

Other observations

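Mast cell genes were read in the same way. Of 6 measured genes 4 were above background, beside 61.0% of all genes. All 4 were over 2-fold higher in replicate 2. Of all genes above background 4.76% differed by over 2-fold in either direction. The carboxypeptidase Cpa3 of mast cell granules gave 5553 and 12574, the chymase Cma1 gave 724.0 and 1643, the histidine decarboxylase Hdc, which makes histamine, gave 1956 and 6367, and Ms4a2, a chain of the high-affinity IgE receptor, gave 416.1 and 2310. The median difference was -1.42, and the summed intensity of the list was 8718 and 23114. Mcpt4 (9.58 and 96.64) and Tpsb2 (59.67 and 123.8) were below the limit on both arrays.

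In the list of dendritic cells and MHC class II, 4 of the 6 genes above background were higher in replicate 2. Of all genes above background 47.3% were. The median difference of the list was -0.41. The class II chains H2-Aa and H2-Eb1 gave 551.2 and 947.8, and 407.4 and 923.9. Both were higher in replicate 2, H2-Eb1 by over 2-fold. H2-Ab1 passed the limit in replicate 2 alone (46.32 and 503.9), and Ciita was below it on both arrays (42.02 and 47.5). The invariant chain Cd74 (598.1 and 527.0) and the transcription factor Batf3 (927.0 and 813.4) were higher in replicate 1. In the lymphoid list the interleukin 7 receptor Il7r gave 529.3 and 2474, while Cd3e, a chain of the T cell receptor complex, was below the limit (11.74 and 14.84).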
